A study of Mus musculus with 6 samples.

Results

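The PARP family comprises enzymes that move ADP-ribose from NAD onto proteins and nucleic acids, and 10 of its genes were followed by name in CD8+ T cells, Parp1, Parp2, Parp3, Parp6, Parp8, Parp9, Parp10, Parp11, Parp12 and Parp14. Of these, 9 were measured among 22180 genes, because the probe set of Parp10 names a second gene, Plec, and a probe set that names several genes was not read. Each measured member had 1 probe set of its own. A further probe set that names both Parp9 and its partner gene Dtx3l was not read either.

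The study used 6 Affymetrix whole-transcript arrays of RNA from CD8+ T cells of C57BL/6 mice, 3 labelled wild type and 3 labelled Dot1l knockout. Dot1l encodes the methyltransferase of lysine 79 on histone H3. The knockout came from a floxed Dot1l allele (Dot1l flox/flox) crossed with CD4-Cre, a recombinase driven by the Cd4 promoter, which acts in all developing T cells that pass through a Cd4-positive stage and so is not limited to CD8+ cells. The labels give wild type mice no further genotype, give no age, and name no agent, and fresh cells were taken from peripheral lymph nodes and spleen with a magnetic kit. Whether each array stands for an animal of its own is not in the labels. The p-values therefore speak for the scatter of these 6 samples, part of which may be technical.

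Some PARPs build chains of ADP-ribose and most add a single unit. Parp1, Parp2 and Parp3 respond to DNA breaks. Parp9, Parp10, Parp11, Parp12 and Parp14 are known as genes that interferon induces, several of them with antiviral or signalling roles, while Parp6 and Parp8 are close relatives of one another with less settled roles. Macrodomain proteins and hydrolases such as Parg remove the mark, and Nampt supplies the NAD that the enzymes consume.

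The arrays were alike within groups (r of 0.989 to 0.995 over genes) and slightly less so between them (0.984 to 0.987). All 8 measured CD8 T cell markers were above a background guide of 3.83 on the log2 scale, the 95th percentile of olfactory and vomeronasal receptor genes, with Cd8a between 10.87 and 11.23 over the 6 arrays. The Dot1l probe set was not lower in knockout-labelled arrays (7.31, 7.26 and 7.33 against 7.46, 6.96 and 7.18). The sources used here do not give the deleted exon, so that probe set does not check the labels. Over all genes 954 passed as higher and 266 as lower in knockout-labelled arrays (limma, Benjamini-Hochberg adjusted p under 0.05), or 625 and 470 after another quantile normalization.

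Upstream sequences of Parp11 and Parp12 are shown first, because interferon acts through short promoter motifs. RefSeq promoter windows (GRCm38.p6, 250 bases before to 50 after a start) were held for 7 of the 10 members, 8 windows in all. Windows of Parp9, Parp10 and Parp14 were not analysed here, so of the interferon-linked members only Parp11 and Parp12 are among these 8, with 3 windows, and the other windows are those of Parp1, Parp2, Parp3, Parp6 and Parp8. The core of the interferon-stimulated response element, GAAANNGAA on either strand, was present in 1 of these 8 windows, a start of Parp11, and in 8.56% of all 32851 windows. Among 22 interferon-stimulated genes listed for comparison windows were held for 17, 19 windows in all. Of these 19 windows 12, from 11 genes, held the core, or 8 in the 250 bases before the start alone. Of the family genes outside the named members 2 of 5 windows held it, those of Parp4 and Tnks2. The 100 bases before a start follow for Parp11, Parp12 and the interferon-stimulated gene Isg15, with the core in capitals.
Parp11, start with the core, chr6:127446740-127446839, plus strand: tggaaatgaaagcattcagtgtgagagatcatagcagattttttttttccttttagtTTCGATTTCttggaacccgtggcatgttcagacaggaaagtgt
Parp11, other start, chr6:127453527-127453626, plus strand: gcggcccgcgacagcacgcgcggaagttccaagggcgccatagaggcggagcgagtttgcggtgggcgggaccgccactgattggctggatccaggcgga
Parp12, chr6:39118350-39118449, minus strand: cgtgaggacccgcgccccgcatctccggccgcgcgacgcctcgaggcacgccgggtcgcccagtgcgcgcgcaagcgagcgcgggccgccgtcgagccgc
Isg15, chr4:156200819-156200918, minus strand: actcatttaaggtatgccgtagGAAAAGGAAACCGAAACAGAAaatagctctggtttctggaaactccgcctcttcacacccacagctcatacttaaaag

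In Parp11 the core lay 43 bases before the first of its starts, read on the opposite strand, and a GAS element, TTCNNNGAA, another interferon-linked motif, overlapped it from 37 bases before the start. The GAS element was in 1 of the 8 member windows and in 8.30% of all windows. Isg15 carried 3 overlapping copies of the response element core, the first of them 78 bases before the start. Neither motif was found in the window of Parp12. These matches describe the letters in 300-base windows only.

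Parp12, Parp9 and Parp8 rose in knockout-labelled arrays, Parp12 by 2.33-fold, Parp9 by 1.62-fold and Parp8 by 1.43-fold. None of the 9 members passed as lower (0, against 1 at an unadjusted p under 0.05, Parp6), and 6 did not pass in either direction. The log2 differences of Parp1, Parp2 and Parp3 lay between -0.18 and 0.06. The 3 calls among 9 members stand beside 5.50% of all genes called in either direction, 4.30% called as higher and 1.20% called as lower. The groups did not overlap for 5 members (Parp6, Parp8, Parp9, Parp11 and Parp12), against 23.5% of all genes. The median log2 difference of the 9 members was 0.27, and that of all genes was -0.0121.

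**Figure D1:**
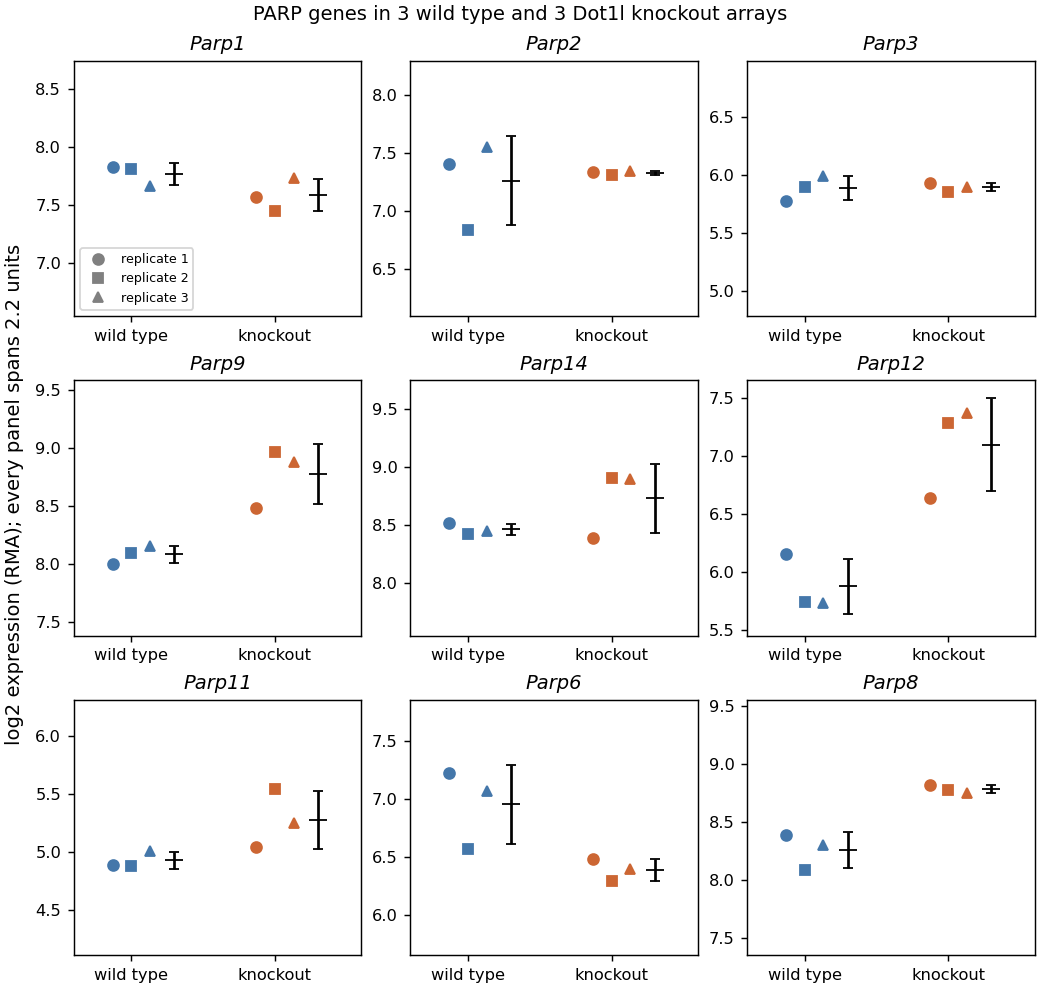
Log2 expression of the 9 measured members in each array, with 3 wild type points on the left of each panel and 3 knockout-labelled points on the right; marker shapes are replicate numbers, and the bars give mean ± SD. Parp12, Parp9 and Parp8 show no overlap between groups with knockout-labelled points above, and Parp6 shows no overlap with knockout-labelled points below.

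Among the zinc finger and WWE domain members, Parp12 encodes an enzyme that restricts RNA viruses and adds single ADP-ribose units. Its log2 levels were 6.15, 5.74 and 5.73 in wild type arrays and 6.64, 7.28 and 7.37 in knockout-labelled arrays. The groups did not overlap, and the knockout-labelled replicate 1 lay well below the other two. The means were 5.87 ± 0.24 and 7.10 ± 0.40 (SD, n = 3 arrays each, as for all means that follow). The log2 difference was 1.22 (SE 0.20, 95% interval 0.78 to 1.67), with a Benjamini-Hochberg adjusted p of 0.00696 in limma, and its size was at the 99.1 percentile of all genes. Parp12 passed in all 6 fits that left out 1 array, with an adjusted p between 0.00191 and 0.0358. The call ended, and the difference was 0.60 (SE 0.31, limma adjusted p = 0.409), with the median of each array's unnamed probe sets as a covariate. That median did not overlap between the groups, so this fit, here and below, cannot separate it from the knockout label.

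Parp11, a WWE domain enzyme linked to turnover of the interferon receptor, was the dimmest member. It read 4.89, 4.88 and 5.01 in wild type arrays and 5.04, 5.54 and 5.25 in knockout-labelled arrays. The lowest knockout-labelled value, again replicate 1, was just above the highest wild type value. The log2 difference of 0.35 (SE 0.14, 95% interval 0.04 to 0.65) did not pass (limma adjusted p = 0.208), and with that covariate it was 0.07.

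Of the macrodomain members, Parp9 works with the ubiquitin ligase Dtx3l in interferon signalling and damage responses. Its log2 levels were 8.0, 8.09 and 8.15 in wild type and 8.48, 8.96 and 8.88 in knockout-labelled arrays. All 3 knockout-labelled values exceeded the wild type values, with replicate 1 closest to them. The means of 8.08 ± 0.07 and 8.77 ± 0.26 differed by 0.69 (SE 0.14, 95% interval 0.38 to 1.0, limma adjusted p = 0.0189). The call ended without wild type replicate 1 or 3 (limma adjusted p = 0.0563 and 0.0528) and without knockout replicate 2 or 3 (0.0812 and 0.0918), with differences between 0.60 and 0.84 over the 6 such fits. It also ended when all probe sets, unnamed ones included, were tested together (0.0554) and with the covariate (0.48, adjusted p = 0.421).

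Parp14, the other macrodomain member, encodes a coactivator of Stat6, and it is the closest measured protein-coding gene to Parp9 on one side, on chromosome 16. It read 8.52, 8.43 and 8.45 in wild type and 8.39, 8.91 and 8.90 in knockout-labelled arrays. Knockout replicate 1 lay below every wild type array and the other two lay above, so the groups overlapped. The log2 difference of 0.27 (SE 0.15, 95% interval -0.06 to 0.60) did not pass (limma adjusted p = 0.390). Without knockout replicate 1 the difference was 0.44 (limma adjusted p = 0.0891), and with the covariate it was -0.07 (0.929).

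Knockout replicate 1 was the lowest array of its group for 4 of the 9 measured members, Parp12, Parp9, Parp14 and Parp11. They are named here because of that order. Knockout replicate 2 was lowest for as many, 4 (Parp1, Parp2, Parp3 and Parp6), and knockout replicate 3 for 1, Parp8. The share of 44.4% for knockout replicate 1 is near that of all genes. Over the 9 members this array read a median of 0.02 below the mean of the other 2 (-0.02). It was the lowest for 21 of the 22 interferon-stimulated genes listed, for 35.8% of all genes and for 39.0% of the genes that passed as higher. In the interferon-stimulated genes its median was 0.52 log2 units below the other two (-0.52), and over all genes 0.01 below (-0.01).

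**Figure D2:**
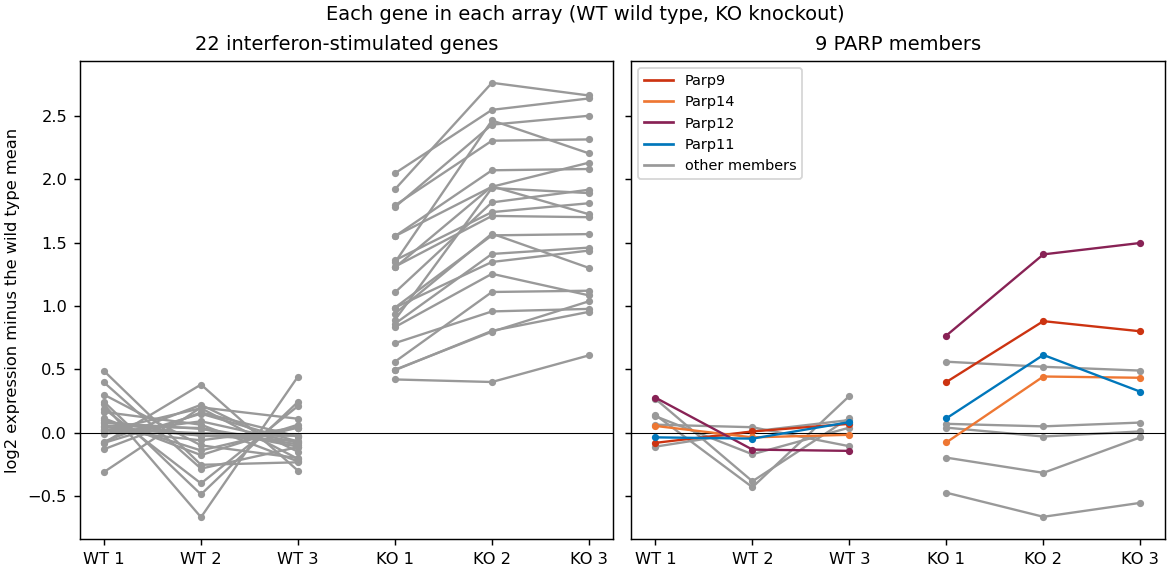
Log2 expression minus the wild type mean of each gene, for 22 interferon-stimulated genes (left) and the 9 measured members (right) in the 6 arrays; lines join the values of one gene within a group. Parp12, Parp9, Parp14 and Parp11 are lowest in knockout replicate 1 within their group, as are 21 of the 22 interferon-stimulated genes. Parp1, Parp2, Parp3 and Parp6 are lowest in knockout replicate 2.

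Parp8 and Parp6, the paralogous pair, had differences of opposite sign, and only that of Parp8 passed in the fit of all genes and arrays. Parp8 read 8.39, 8.09 and 8.30 in wild type and 8.82, 8.78 and 8.75 in knockout-labelled arrays. All knockout-labelled values were higher, and they lay closer together (SD 0.03) than the wild type values (SD 0.15). The log2 difference was 0.52 (SE 0.11, 95% interval 0.27 to 0.77, limma adjusted p = 0.0245). The call ended without wild type replicate 3 (limma adjusted p = 0.0660) and without knockout replicate 1, 2 or 3 (0.0955, 0.0901 and 0.0874), and it ended when all probe sets were tested (0.0556) and with the covariate (0.29, adjusted p = 0.502).

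Parp6 read 7.22, 6.57 and 7.07 in wild type and 6.48, 6.29 and 6.40 in knockout-labelled arrays. Every knockout-labelled value was below every wild type value, but wild type replicate 2 lay only just above them. The log2 difference of -0.56 (SE 0.16, 95% interval -0.93 to -0.20) did not pass (limma adjusted p = 0.0888). It passed without wild type replicate 2, at -0.75 (limma adjusted p = 0.00763), and after another quantile normalization, at -0.68 (0.0402). It also passed with trend and robust fitting (0.0492) and with array weights (0.0247). With the covariate the difference was -1.03 and did not pass (0.121).

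The DNA-break members showed no difference that passed, 0 of 3 also at an unadjusted p under 0.05. Parp1, which builds most of the ADP-ribose chains made after DNA damage, read 7.83, 7.81 and 7.66 in wild type and 7.57, 7.45 and 7.73 in knockout-labelled arrays. The groups overlapped, and the log2 difference was -0.18 (SE 0.11, 95% interval -0.43 to 0.07, limma adjusted p = 0.446). Parp2, its closest relative in break repair, read 7.40, 6.83 and 7.55 against 7.33, 7.31 and 7.34, a difference of 0.06 with a 95% interval of -0.32 to 0.45. Wild type replicate 2 was far below the other wild type arrays for Parp2, and without it the difference was -0.15 (limma adjusted p = 0.501). Parp3, an enzyme of end joining, read 5.78, 5.90 and 5.99 against 5.93, 5.86 and 5.90, a difference of 0.01 with a 95% interval of -0.22 to 0.24. These intervals bound the differences, and the sign for Parp2 and Parp3 changed with the scaling (-0.01 and -0.17 after another quantile normalization).

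**Figure D3:**
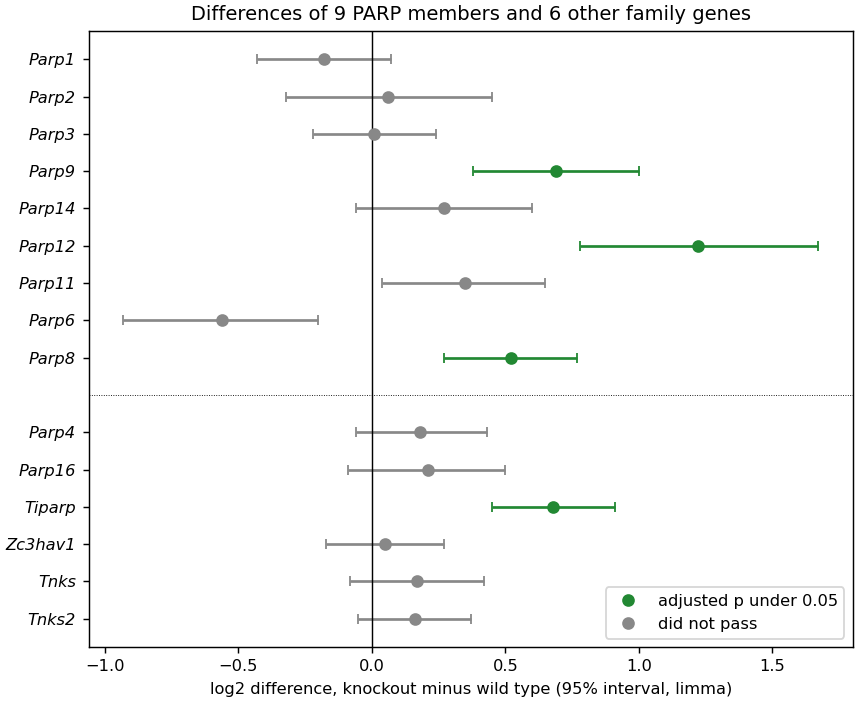
Log2 difference, knockout-labelled minus wild type, with its 95% interval from limma, for the 9 measured members (above the dotted line) and 6 further family genes (below it); green points passed at an adjusted p under 0.05. Parp12 at 1.22, Parp9 at 0.69, Parp8 at 0.52 and Tiparp at 0.68 passed, and Parp6 at -0.56 did not.

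Members of one role group were set against each other within each array, in 6 pairs, by the difference of their log2 ratio between groups. With 3 arrays against 3 the two-sided exact permutation test cannot go below 0.10. The ratio of Parp8 to Parp6 differed by 1.08 log2 units between groups, with an SD of 0.19 in wild type and 0.08 in knockout-labelled arrays. The ratio of Parp14 to Parp9 differed by -0.42 (SD 0.12 and 0.06), and that of Parp11 to Parp12 by -0.87 (SD 0.28 and 0.27). In each of these 3 pairs the groups did not overlap. Each gave the smallest exact permutation p of 0.10, or 0.20 adjusted over the 6 pairs. The share of all gene pairs without overlap was not computed, and for single genes it was 23.5%. The comparison was chosen after the values were seen. These ratios restate differences of the same genes given above, so they are no further support. The 3 pairs of Parp1, Parp2 and Parp3 gave differences of -0.06 to 0.25, with exact permutation p of 0.20 to 1.0. The groups did not overlap in the ratio of Parp14 to Parp9, although they did in Parp14 itself, and both genes were lowest of their group in knockout replicate 1.

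**Figure D4:**
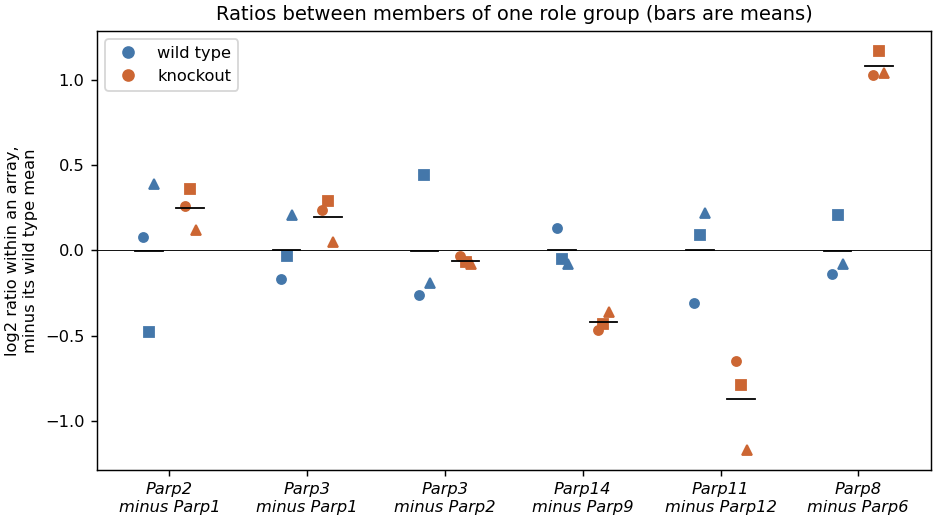
Log2 ratio between 2 members of one role group, each array's ratio minus the wild type mean of that ratio; blue points are wild type, orange points knockout-labelled arrays, black bars group means, and shapes replicate numbers. Parp8 minus Parp6 differs by 1.08, and Parp14 minus Parp9 and Parp11 minus Parp12 differ by -0.42 and -0.87, with no overlap between groups.

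Of 6 family genes outside the named members, 1 rose, 0 fell (0 also at an unadjusted p under 0.05) and 5 did not pass, with a median log2 difference of 0.18. Tiparp, a mono-ADP-ribosyltransferase induced through the aryl hydrocarbon receptor, read 7.74, 7.86 and 7.87 in wild type and 8.40, 8.55 and 8.57 in knockout-labelled arrays. The groups were well apart, with a difference of 0.68 (SE 0.10, limma adjusted p = 0.00486), and it passed in all 6 fits that left out 1 array. Its call ended with the covariate (0.68, SE 0.19, limma adjusted p = 0.152). A second Tiparp probe set read below the background guide (2.19 and 2.44, difference 0.25) and their mean gave a smaller difference of 0.47, which still passed. Zc3hav1, the antiviral zinc finger protein that lacks ADP-ribosyltransferase activity, read 9.61 ± 0.04 and 9.66 ± 0.07, a difference of 0.05 (95% interval -0.17 to 0.27). Parp4, Parp16, Tnks and Tnks2 differed by 0.18, 0.21, 0.17 and 0.16, none of which passed.

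Of 7 measured enzymes that remove ADP-ribose, 0 passed (1 at an unadjusted p under 0.05, Nudt16), and the median was 0.04 as deposited and -0.14 once quantiles were equalised again. Parg, the main chain hydrolase, differed by 0.18 (limma adjusted p = 0.425), and Nudt16, a hydrolase of ADP-ribose and other diphosphates, by 0.49 (0.0806). Oard1, a macrodomain hydrolase, differed by -0.21, and Macrod2 read below the background guide. Of 13 partners and readers in DNA repair, 0 passed (5 at an unadjusted p under 0.05, 5 higher and 0 lower), and the list median was 0.06. After another quantile normalization 1 was higher and 3 were lower at an unadjusted p under 0.05, with a median of -0.11, so the direction of this list turned with the scaling. Among these, the ligase gene Lig3 differed by 0.31, Polb, the polymerase of base excision repair, by 0.30, Rnf146, a ubiquitin ligase that reads ADP-ribose chains, by 0.30, and the histone gene Macroh2a1 by 0.27 (limma adjusted p = 0.137 to 0.210).

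Partners of the interferon-linked PARPs went both ways, with 2 of 11 higher, 1 lower and a median of 0.14. Irf7, the factor that amplifies interferon production, rose from 7.69 ± 0.09 to 9.68 ± 0.18. Ifngr2, a chain of the interferon-gamma receptor, fell from 9.14 ± 0.08 to 7.87 ± 0.28 (difference -1.27, SE 0.14, limma adjusted p = 0.00096). Its 3 knockout-labelled values of 7.59, 7.90 and 8.14 were all below the wild type values of 9.06, 9.17 and 9.20. With the covariate the difference of Ifngr2 was -1.40 and did not pass (limma adjusted p = 0.0677). Ifnar2, a chain of the type I interferon receptor, rose by 0.45 (SE 0.11, limma adjusted p = 0.0429). That call held without wild type replicate 2 and ended when any of the other 5 arrays was left out (0.104 to 0.146). It also ended after either rescaling (0.0614 and 0.0915) and with the covariate (0.71, limma adjusted p = 0.112). Jak1, a kinase of both receptors, differed by 0.20 and did not pass (0.313).

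Of the 22 interferon-stimulated genes 21 rose and 0 fell (0 also at an unadjusted p under 0.05), with a median of 1.57. These genes were already known to rise in these arrays, so the count is no independent support. The smallest p were those of Oasl2 (2.41), Cmpk2 (2.14), Ifih1 (1.90) and Ifit1 (2.24), all of which exceed the 1.22 of Parp12, the largest difference among the members. Ifit3 differed by 0.48 and did not pass (limma adjusted p = 0.106).

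NAD supply and use showed a few changes among many genes that did not pass. Nampt, the rate-limiting enzyme of NAD salvage, read 7.53, 7.35 and 7.30 in wild type and 7.98, 8.25 and 8.23 in knockout-labelled arrays. All knockout-labelled values were higher, and the rise was 0.76 (SE 0.12, limma adjusted p = 0.00569). Its call ended with the covariate (0.51, limma adjusted p = 0.285). Nampt was the 1 of 10 NAD synthesis genes that passed as higher. None passed as lower (0, against 1 at an unadjusted p under 0.05, Nmnat2, -0.38), and the list median was -0.05. Nmnat2, which joins NAD from its mononucleotide, passed as lower after another quantile normalization (-0.57, limma adjusted p = 0.0158) and after median centring (-0.43, 0.0454). Nadk2 differed by 0.28 and Nmrk1 by -0.29 without passing.

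Among 15 other NAD consumers and surface ADP-ribosylation genes 2 rose, 0 fell (0 also at an unadjusted p under 0.05), and the median was 0.08. Cd38, Art2a, Art2a-ps and Art2b were listed but not measured, and Art1, Art3, Art5 and Sarm1 had means below the background guide in both groups. P2rx7, the ATP-gated channel that surface ADP-ribosylation activates on T cells, read 5.03, 4.79 and 4.89 in wild type and 5.84, 6.52 and 6.35 in knockout-labelled arrays. The rise was 2.52-fold (1.33, SE 0.17, limma adjusted p = 0.00195), and the call ended with the covariate (0.80, limma adjusted p = 0.205). Bst1, an ecto-enzyme that makes cyclic ADP-ribose, rose by 0.74 (adjusted p = 0.0346) from 3.89 ± 0.37, close to the background guide. That call ended without wild type replicate 1 (0.0563) and without knockout replicate 1, 2 or 3 (0.0965, 0.121 and 0.120). It also ended after another quantile normalization (0.0726), with all probe sets tested (0.0897) and with the covariate (0.15, limma adjusted p = 0.819). Nt5e, which degrades extracellular AMP, differed by 0.47 (0.0643), and Sirt5, a mitochondrial deacylase that uses NAD, by 0.23 (0.343).

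**Figure D5:**
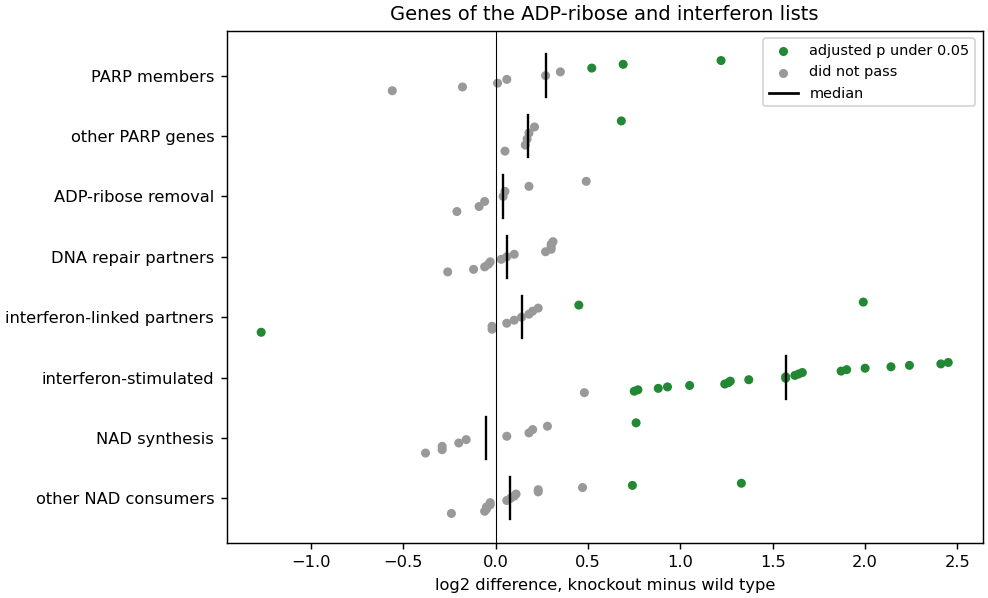
Log2 differences, knockout-labelled minus wild type, of every measured gene in the PARP members and 7 related lists; green points passed at an adjusted p under 0.05, and black lines are list medians. The interferon-stimulated list has a median of 1.57, the members 0.27, and the other lists lie between -0.05 and 0.18.

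Markers of other cells moved in the same arrays. In bulk RNA more cells of a type and more RNA per cell cannot be told apart. Of 10 B cell markers 4 rose, Cd22 by 1.29, H2-Aa by 1.21, Ms4a1 by 1.13 and Cd79a by 0.86, and 0 fell (0 also at an unadjusted p under 0.05). Their summed level (log2 of the sum of linear values) was 7.79 to 8.10 in wild type and 8.41 to 8.70 in knockout-labelled arrays. The 6 that did not pass were Fcer2a (0.42), Ebf1 (0.26), Cd79b (0.24), Cr2 (0.20), Blk (-0.09) and Pax5 (-0.19). Cd79b was the brightest of the 10, with means of 6.52 in wild type and 6.76 in knockout-labelled arrays. Ms4a1 went from below to above the background guide, and 3 of the 10, Pax5, Ebf1 and Cr2, were below it in all 6 arrays. Of 8 dendritic cell markers 2 rose, Itgax and the interferon-stimulated gene Bst2, by 1.14 and 0.75, and Flt3, Zbtb46, Siglech and Batf3 were below the guide in all arrays. Their summed levels of 11.7 to 11.9 and 11.8 to 12 are mostly those of Ccr7 (11.23 and 10.96) and Bst2 (10.06 and 10.81), which T cells also express, and so do not measure dendritic cells. Of 5 NK cell markers 1 rose, Eomes, and 4 were higher at an unadjusted p under 0.05, with Ncr1 at 0.44, Klrb1c at 0.90 and Fcgr3 at 0.29 besides. The list median was 0.44. Klrb1c and Fcgr3 had wild type means below the guide (3.25 and 3.66), and for Klrb1c the groups overlapped. Their summed levels of 8.54 to 8.66 and 9.69 to 9.77 are mostly those of Eomes (8.29 and 9.56), which CD8 T cells also express.

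Of 10 monocyte, macrophage and neutrophil markers 1 rose and 1 fell (7.13 to 7.34 and 7.08 to 7.16), with 4 below the guide in all arrays, and of 5 markers of CD4 and regulatory T cells 1 rose and 1 fell (6.73 to 6.88 and 6.73 to 6.81). None of 3 erythroid and platelet markers passed (0 also at an unadjusted p under 0.05), with summed levels of 5.16 to 5.38 and 5.17 to 5.47. Of the 8 CD8 T cell markers 1 fell, Cd5, at summed levels of 13.8 to 13.9 and 13.8. The part of any of these in the PARP differences was not tested. The median of the unnamed probe sets also moved with the groups, from 3.34 to 3.49 in wild type and 3.55 to 3.63 in knockout-labelled arrays. With that median as a covariate, as given beside the members, 0 of the 9 passed, and 216 of all genes did (limma adjusted p under 0.05).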

How the data were processed

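RNA of CD8+ T cells was hybridised to 6 arrays, 3 per group as labelled. The deposited table holds log2 values that the authors made with RMA. The submitters' processing notes name R 3.1.1. The sources used here do not give its settings, annotation or build, and RMA compresses differences of dim genes. Of 41345 probe sets 23521 name 1 gene, 1814 name several and 16010 are unnamed. For the 1082 genes with several probe sets that of the highest mean over 6 arrays was used, which left 22180 genes. Each was tested by lmFit and eBayes without a covariate (limma 3.58.1, R 4.3.3), with Benjamini-Hochberg adjustment over all genes. The limma function was tested on simulated data. For arrays, their number limits the precision.

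The members and lists were chosen with earlier results of these data known. Named genes were the members, the other family genes, the 4 smallest p of each pathway list, the nearest 2 measured protein-coding genes on each side of members that passed, and the 5 genes nearest in pattern to Parp9 and Parp14. Others, such as single markers, were chosen after their values were seen, and so was the comparison of member ratios. A planned comparison of protein sequences was not made here.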

Additional observations from a re-analysis of the deposited data

Results flagged for a closer look

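Unnamed probe sets, which entered no gene test, read higher in knockout-labelled arrays, at a median log2 difference of 0.05. Of 16010 such probe sets 744 passed as higher and 108 as lower when all probe sets were tested together with limma, and 57.8% had a positive difference. No group was large enough to test a single array as an outlier.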

How the results depend on the processing

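Over 16 alternative fits, Parp12 passed in 15, Parp9 in 10 and Parp8 in 9, and of 144 member fits 116 kept both direction and side of the threshold. Leaving out 1 array gave 1 to 4 members passing and 615 to 1307 genes. The differences then ranged from 0.60 to 0.84 for Parp9, 0.44 to 0.58 for Parp8, -0.75 to -0.43 for Parp6, -0.15 to 0.21 for Parp2 and -0.05 to 0.06 for Parp3. They ranged from -0.02 to 0.23 for Dot1l, -0.06 to 0.14 for Kpna1, -0.06 to 0.21 for Tbxas1, -0.19 to 0.01 for Kdm7a, -0.03 to 0.18 for Slc37a3 and -0.01 to 0.12 for Emb. At an adjusted p under 0.01, 1 member and 534 genes passed. With all probe sets tested 1 member passed, and Parp9 (0.69) and Parp8 (0.52) fell short. In that fit more features were tested and the SE also moved, from 0.14 to 0.15 for Parp9. The part of each was not tested.

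With the unnamed median as a covariate 0 members and 216 genes passed, with Parp9 at 0.48, Parp12 at 0.60, Parp8 at 0.29, Parp14 at -0.07 and Parp2 at -0.50. Signs then also turned for Dot1l (-0.26), Parp4 (-0.02), Zc3hav1 (-0.09), Tnks (-0.11), Macrod2 (0.07), Kpna1 (-0.21), Hipk2 (-0.31), Slc37a3 (-0.29), Pelo (0.39), Isl1 (0.13), Emb (-0.09), Mrps30 (0.18), Vmn1r193 (-0.10), Ntmt1 (-0.15), Zfp719 (-0.01) and Tardbp (-0.14). The covariate did not overlap between the groups, so this fit cannot tell a shift of the arrays from a difference between groups. SEs rose, from 0.14 to 0.26 for Parp9 and from 0.10 to 0.19 for Tiparp, whose difference stayed at 0.68. An ended call in this fit therefore decides nothing about a difference, and the cause of the moves was not tested.

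Another quantile normalization turned Parp2 (-0.01), Parp3 (-0.17) and Kpna1 (-0.01) and let Parp6 pass (-0.68). It moved the calls from 78.2% to 57.1% higher and the median of all genes from -0.0121 to -0.0579. Median centring turned Parp3 (-0.04), Kpna1 (-0.02) and Zc3hav1 (0.00). Array weights turned Parp2 (-0.04), Parp3 (-0.01) and Kpna1 (-0.03) and let Parp6 pass (-0.63), as did trend and robust fitting (-0.56). The cause was not tested. Restricting the motif search to the 250 bases before a start left 1 of 8 member windows with the core, 8 of 19 windows of interferon-stimulated genes in place of 12, 2 of 5 of the other family genes, and 7.13% of all windows.

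Same-numbered arrays did not deviate together (r of -0.16 to -0.07 over genes), so the numbers were not taken as pairs. With the replicate number as a block 912 genes and 2 members passed, and Parp8 did not (0.52, limma adjusted p = 0.0582).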

Other observations

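Of 11 measured protein-coding neighbours of Parp9, Parp12 and Parp8 that are not members, 0 passed (limma with Benjamini-Hochberg, against 2 at an unadjusted p under 0.05, Hspbap1 and Wdr5b). Over all genes 5.50% were called in either direction, and 11 genes are too few to tell 0 from that share. Beside Parp9 and Parp14 on chromosome 16, Kpna1, a nuclear import receptor, differed by 0.03, Wdr5b by 0.40 and Hspbap1 by -0.30. Around Parp12 on chromosome 6 the kinase gene Hipk2 differed by 0.25, the thromboxane synthase gene Tbxas1 by 0.11, the histone demethylase gene Kdm7a by -0.08 and Slc37a3 by 0.11. Around Parp8 on chromosome 13 Pelo differed by -0.12, Isl1 by -0.28, Emb by 0.05 and Mrps30 by -0.06. Beside members that did not pass, 21 other neighbours were measured, and 3 of them passed, against the same 5.50% of all genes. The counts were not compared by a test. Those 3 are named here after their values were seen. Cracr2a, next to Parp11, rose by 0.79 (limma adjusted p = 0.00448), Rrp9, next to Parp3, fell by 0.59 (0.0154), and Slc49a4, near Parp14, fell by 0.43 (0.0429).

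The genes nearest to Parp9 in pattern over the 6 arrays, after centring on the wild type mean and among genes above the median level, were Tmem184b, Snhg7, Zbtb1, the MHC class I gene H2-T24 and Rxylt1. Their root mean square distances from Parp9 were 0.0605 to 0.0779 log2 units and their differences 0.67 to 0.78. Nearest to Parp14 were Vmn1r193, Ntmt1, Zfp719, Oplah and Tardbp, at distances of 0.0523 to 0.0744, and none of these 5 passed (limma adjusted p = 0.341 to 0.493). Vmn1r193 is a vomeronasal receptor gene, of the class used for the background guide. These genes were picked for nearness over the same arrays. Their differences and calls therefore follow those of Parp9 and Parp14 and are no further result.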
